A study of Drosophila melanogaster with 2 samples.

Results

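The genes described here are the chemosensory receptor genes of Drosophila melanogaster: the odorant receptor (Or), gustatory receptor (Gr) and ionotropic receptor (Ir) families. They were chosen by symbol, as protein-coding genes named Or, Gr or Ir followed by a number and letters, and this gave 179 of 13968 protein-coding genes. The Or family had 59 members, the Gr family 60 and the Ir family 60. A further 7 pseudogenes with such symbols were left out. The members were looked up in chromatin immunoprecipitation sequencing (ChIP-seq) peak lists of fd59A, a forkhead-domain transcription factor. The flies stably carried a transgene for a C-terminal fusion of GFP with fd59A, whose driving promoter the labels do not give, and the precipitation used an antibody to GFP. There was 1 group, whole prepupae with males and females pooled and an age of 24 day in the labels, with biological replicates 2 and 3 from separate biosamples of 1 transgenic line. No sample of another genotype, treatment or stage, and no control library, was analysed here. A peak's height is the authors' own signal value, whose scaling is not stated, so heights are read within a list and ranks are used between lists. Signal that does not come from the tagged protein cannot be told apart, and in whole animals a site bound in few cells cannot be told apart from a site bound weakly in many.

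Or proteins are odour-gated channels of olfactory neurons that work together with the co-receptor Orco. Gr proteins serve sweet, bitter and carbon dioxide sensing, mostly in taste neurons, and Ir proteins are variant glutamate receptors that sense acids, amines, humidity and temperature together with co-receptors such as Ir25a, Ir8a and Ir76b. Each tuned receptor is known to be transcribed in a small set of sensory neurons, and many of the genes lie in tandem groups of recent duplicates. Forkhead factors bind DNA through a winged-helix domain that recognises a TAAACA core.

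Receptor genes with a peak in the authors' thresholded list were few, and those peaks lay away from the start sites. This list, thresholded by the irreproducible discovery rate (IDR), held 5327 dm6 peaks. They were the strongest regions of the authors' list from the pooled alignments. Of all IDR peaks, 92.7% had a summit within 100 bp in both replicates, so a listed peak was not always found in each replicate. Each summit was assigned to the nearest protein-coding transcription start site (TSS) at most 10 kb away. In the IDR list 8 of the 179 receptor genes had an assigned summit (4.47%, Wilson 95% interval 2.28 to 8.57), beside 19.0% of all protein-coding genes. The Or family had 2 of 59 (3.39%, interval 0.935 to 11.5), the Gr family 4 of 60 (6.67%, 2.62 to 15.9) and the Ir family 2 of 60 (3.33%, 0.919 to 11.4). All 3 families were below the share of all genes, and in each the interval's upper bound was also below it. Intervals cover counting error only, genes in tandem groups are not independent, and no test of the difference was made.

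The 8 genes were Gr93a, Gr93b, Gr93d, Gr89a, Or45b, Or94a, Ir48b and Ir68a, and together they had 13 IDR summits in 11 non-overlapping regions. The 101 bases around 6 of these summits are shown, the strongest of each of the 6 genes for which sequence is printed, because they are the sites on which the counts rest. They are read from the plus strand of dm6 (RefSeq sequence), 5′ to 3′, and capitals mark matches to 5 motifs searched on both strands: TAAACA, the core of forkhead factors; AGATAA, a site of zinc-finger factors of the Pannier kind; TGATAA, a variant that overlaps it in its last letters; TAATTA, a site of homeodomain factors; and GAGAG, the site of Trl.
Gr93b, chr3R:21838653-21838753: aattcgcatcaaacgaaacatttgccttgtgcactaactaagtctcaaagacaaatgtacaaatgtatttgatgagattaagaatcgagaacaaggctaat
Gr93d, chr3R:21849108-21849208: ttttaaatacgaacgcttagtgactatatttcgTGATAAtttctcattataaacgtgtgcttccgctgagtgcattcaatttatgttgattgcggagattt
Gr93a, chr3R:21829003-21829103: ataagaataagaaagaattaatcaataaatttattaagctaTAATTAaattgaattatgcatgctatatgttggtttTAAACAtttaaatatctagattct
Gr89a, chr3R:16497522-16497622: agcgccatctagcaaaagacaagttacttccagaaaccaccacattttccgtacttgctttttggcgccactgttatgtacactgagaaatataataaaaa
Ir68a, chr3L:11242315-11242415: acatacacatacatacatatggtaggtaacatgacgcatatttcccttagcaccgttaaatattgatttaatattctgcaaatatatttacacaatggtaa
Or94a, chr3R:22985677-22985777: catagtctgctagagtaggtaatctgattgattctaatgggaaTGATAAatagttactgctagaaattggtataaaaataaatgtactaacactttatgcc

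The windows of Gr93b, Gr89a and Ir68a held none of the 5 motifs, and that of Gr93a held the forkhead core as well as the homeodomain site. The forkhead core TAAACA was in 2 of the 13 receptor windows of 101 bp (15.4%, Wilson interval 4.33 to 42.2) and in 12.7% of the windows of all 5327 IDR summits. TGATAA was in 2 of 13 (all IDR summits, 9.31%), TAATTA in 2 of 13 (9.89%), AGATAA in 1 of 13 (8.13%) and GAGAG in 1 of 13 (10.2%). With 13 windows the interval of every motif includes the share over all IDR summits. The windows were rich in A and T, with a GC content of 34.8% ± 8.03 (SD, n = 13 summits) beside 33.6% ± 8.58 for all assigned IDR summits. The richest in A and T was the strongest Gr93a summit, with 17.8% GC, and the second Gr93d summit had the highest GC content, 52.5%. These windows therefore had the base composition of the list as a whole, within the spread between summits.

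None of the 13 receptor summits was in the promoter class, that is within 500 bp of the start of any transcript, while 38.6% of all 4464 assigned IDR summits were. Of the 13, 12 were intergenic (92.3%, Wilson interval 66.7 to 98.6) and 1, at Or94a, lay in an intron of Nha2, a sodium/hydrogen antiporter gene in which Or94a is nested. The interval treats the summits as independent, but 8 of the 13 were at the neighbouring genes Gr93a, Gr93b and Gr93d, some in overlapping regions. The summits of the other genes were also intergenic, except that of Or94a. Over all assigned IDR summits 16.9% were intergenic and 42.5% were in introns. The distance to the receptor TSS ranged from 1387 to 6147 bp with a median of 2599 bp, beside a median of 1237 bp for all assigned IDR summits. Of the 13, 9 lay upstream of the start site and 4 downstream, the latter at Gr93b and Gr89a.

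**Figure D1:**
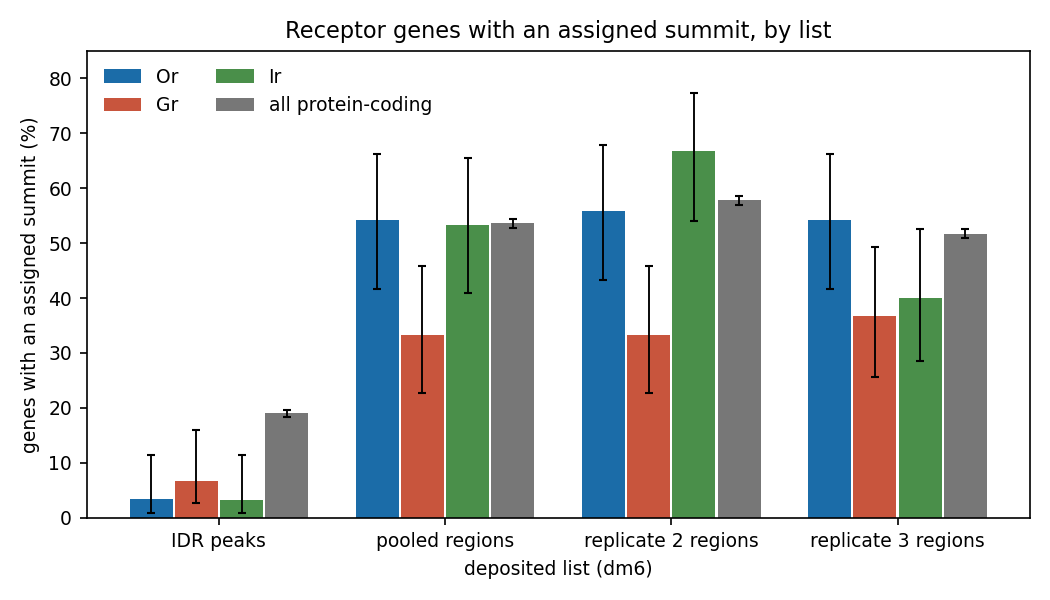
Percent of genes with a summit assigned within 10 kb (y axis) in each deposited dm6 list (x axis), for the Or, Gr and Ir families and all protein-coding genes, with Wilson 95% intervals as error bars. In the IDR list the 3 families stand at 3.39%, 6.67% and 3.33% beside 19.0% of all genes; in the pooled list Or (54.2%) and Ir (53.3%) stand at the level of all genes (53.6%) and Gr is lower (33.3%).

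The Gr family had the largest number of summits, 9 of the 13, and 8 of these belonged to the Gr93 cluster. Gr93a, Gr93b, Gr93c and Gr93d are gustatory receptor genes that lie between CASK, a gene of a membrane-associated scaffold kinase, and glec, a gene of a carbohydrate-binding surface protein, on 3R. Gr93a is required for the response of bitter-sensing neurons to caffeine. The 28.0 kb between CASK and glec (dm6, 3R, 21822675 to 21850693) held 10 IDR summits, which is 357 per Mb beside 36.3 per Mb for the whole of 3R. The other 2 summits in this stretch were nearest to CASK, with signals of 236 and 118. The stretch was singled out because it held these summits, so its density is a description and no test. The strongest Gr93b and Gr93d summits each lay in a region that overlapped that of a weaker summit, and each summit was counted.

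The strongest receptor summit was assigned to Gr93b, 5062 bp downstream of its TSS and beyond the end of the gene, in the intergenic stretch between Gr93a and Gr93b (3R, 21838661 to 21838951). Its pooled signal was 806, rank 221 of 5327. Its signal was 293 in replicate 2, where it ranked 356, and 523 in replicate 3, where it ranked 153. It was high in both replicates, and the next TSS, that of Gr93a, was 6200 bp away.

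Gr93d had the second summit, 2499 bp upstream of its TSS (3R, 21848953 to 21849218). Its pooled signal was 705, rank 327, with 329 in replicate 2 (rank 264) and 388 in replicate 3 (rank 353). It was high in both replicates, at a position between Gr93d and glec. A weaker summit 2722 bp upstream of Gr93d had a pooled signal of 115. The replicates differed most in rank there, with a signal of 42.9 and rank 6269 in replicate 2 and 257 and rank 792 in replicate 3, and the replicate 3 summit lay 53 bp closer to the stronger one.

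Gr93a had 3 IDR summits, all upstream of its TSS. The strongest, 3450 bp upstream (3R, 21828841 to 21829264), had a pooled signal of 282 with 147 in replicate 2 and 139 in replicate 3, at ranks 1275 and 1998. The other Gr93a summits, 2599 and 1899 bp upstream, had pooled signals of 160.0 and 117. The former ranked 3810 in replicate 2 and 3146 in replicate 3, and the latter 4930 and 5279, so that all 3 were within the 5327 strongest of both libraries. Gr93b had 2 weaker summits, at 4077 bp (pooled signal 125) and 4860 bp (113) downstream of its TSS. The latter had a match in replicate 2 (signal 91.0, rank 2448) and none within 100 bp in replicate 3. Gr93c, which lies between Gr93b and Gr93d, had no assigned summit in the IDR or the pooled list, and its TSS was 3.89 kb from the strong Gr93d summit.

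**Figure D2:**
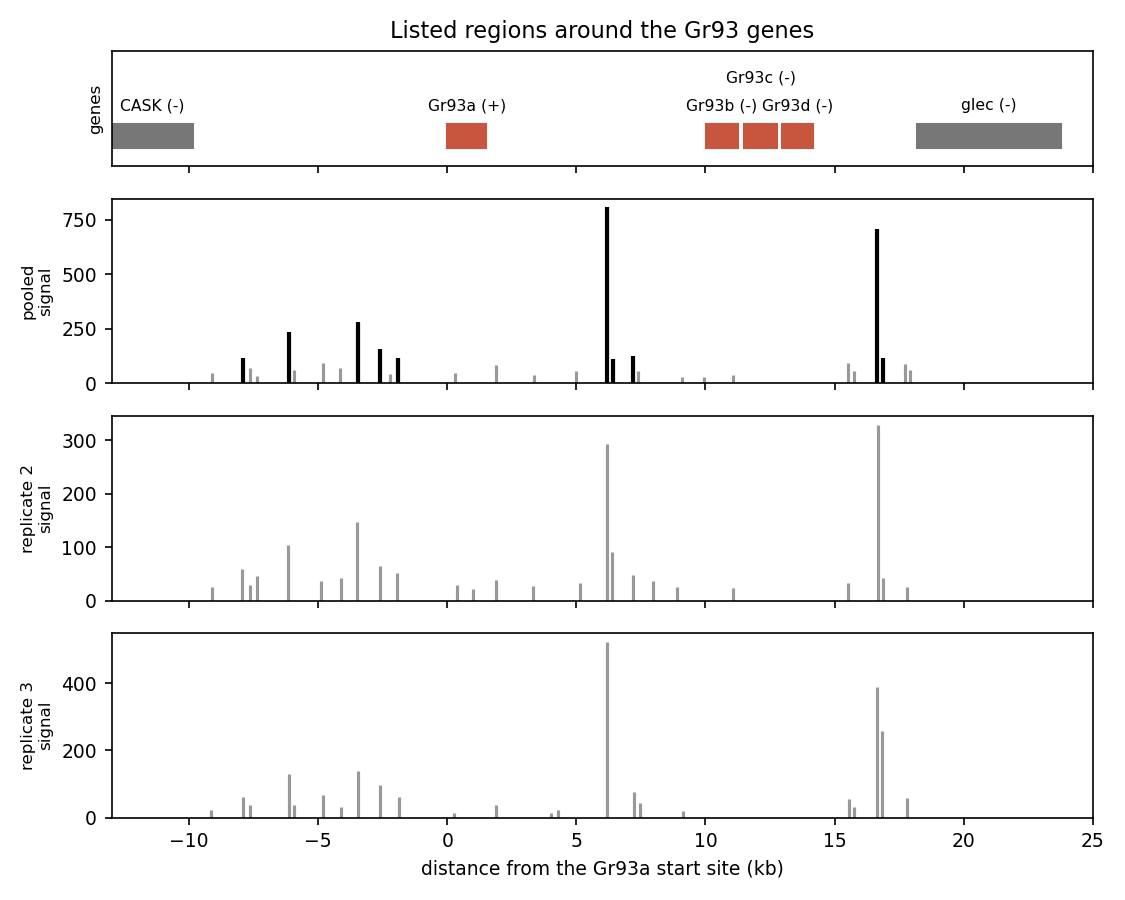
Listed regions between CASK and glec by distance from the Gr93a start site in kb (x axis), with genes as boxes and their strand in the top panel; below, the height of each line is the deposited signal (y axis, authors' units, a scale of its own for each list) in the pooled, replicate 2 and replicate 3 lists, with the 10 IDR summits in black in the pooled panel. The tallest lines, the Gr93b summit (806) and the Gr93d summit (705), are the tallest in both replicates too.

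Outside the Gr93 cluster the receptor summits were weak. Without Gr93a to Gr93d, 5 of 175 receptor genes had an IDR summit (2.86%), 1 summit each. Gr89a, a gene transcribed widely among bitter-sensing neurons, had the strongest, 1387 bp downstream of its TSS between Gr89a and the cadherin gene Cad89D (3R, 16497360 to 16497783). Its pooled signal was 147 (rank 3683), with 59.6 in replicate 2 (rank 4149) and 90.7 in replicate 3 (rank 3429). It was within the strongest 5327 of both libraries, the only gene of these 5 for which that held.

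Of the Ir genes, Ir48b had a summit 2267 bp upstream of its TSS (2R, 11704504 to 11704927). Its pooled signal was 126 (rank 4411), with 46.5 in replicate 2 (rank 5643) and 78.0 in replicate 3 (rank 4045). Ir68a, a receptor of moist-sensing neurons, had a summit 6147 bp upstream (3L, 11242153 to 11242576). Its pooled signal was 110.3 (rank 5113), with 55.1 in replicate 2 (rank 4539) and 56.1 in replicate 3 (rank 5778). Each Ir summit was within the strongest 5327 of 1 library and outside them in the other. A noncoding gene started closer than the Ir gene to both: lncRNA:CR45377 was 1506 bp from the Ir48b summit and lncRNA:CR44713 was 4588 bp from the Ir68a summit.

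Of the Or genes, Or45b and Or94a, both odorant receptors of the larva, had 1 summit each. The Or45b summit lay 1949 bp upstream (2R, 9557437 to 9557860), with a pooled signal of 114 (rank 4881), 47.9 in replicate 2 (rank 5431) and 67.6 in replicate 3 (rank 4742). The Or94a summit lay 1554 bp upstream (3R, 22985515 to 22985938), with a pooled signal of 106 (rank 5317) and 56.9 in replicate 3 (rank 5680). No replicate 2 summit lay within 100 bp of it, though replicate 2 had one at -1445 bp from the same TSS with a signal of 49.2 (rank 5256). The Or94a peak was thus close to the end of the list, where the lowest IDR signal was 106.

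Most receptor summits were at the weak end of the list. Their median pooled signal was 125 beside 193 for all IDR peaks, 8 of the 13 were among the weakest 1000 and 2 among the strongest 1000. Within 100 bp, 11 of the 13 had a summit in both replicates, beside 92.7% of all IDR peaks. By rank, 6 of the 13 were within the strongest 5327 of both libraries.

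**Figure D3:**
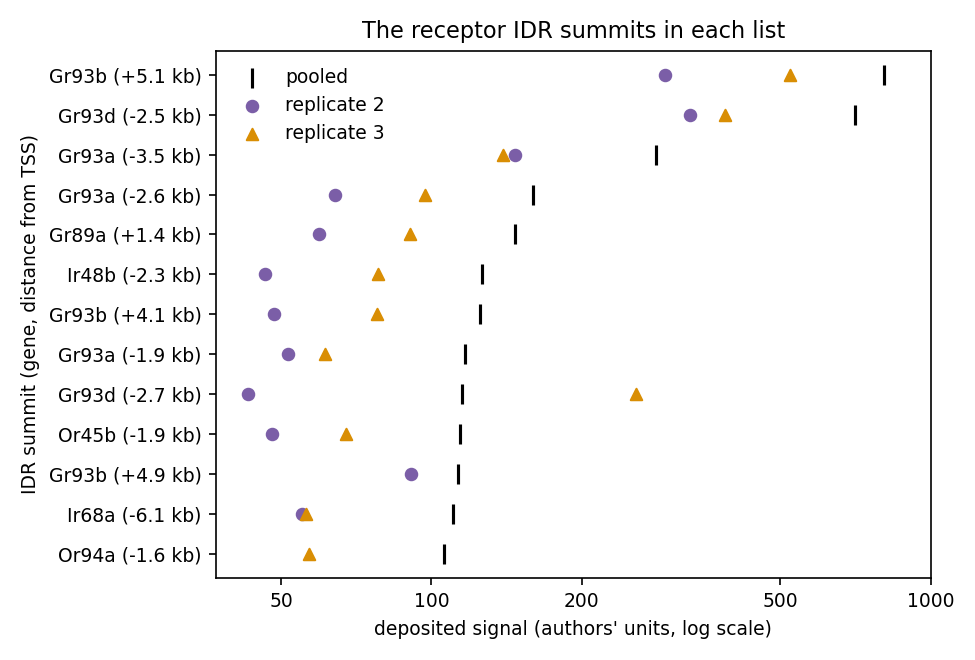
Deposited signal (x axis, authors' units, log scale) of the 13 IDR summits of receptor genes (y axis, gene and distance from its TSS, negative upstream) in the pooled list (bars), replicate 2 (circles) and replicate 3 (triangles). The Gr93b and Gr93d summits at the top stand apart from the others, and the 2 summits with a point missing had no match within 100 bp in that replicate.

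The distance from a TSS to the closest IDR summit was also longer for receptor genes when the assignment was set aside. Its median was 19.8 kb for the 179 receptor genes and 9.02 kb for all protein-coding genes. It was 24.3 kb for the Or family (quartiles 12.4 and 44.1), 14.1 kb for the Gr family (5.97 and 37.5) and 19.2 kb for the Ir family (8.58 and 34.8). No receptor TSS had an IDR summit within 500 bp, whereas 13.4% of all protein-coding genes did. Within 10 kb, 48 of 179 receptor genes had an IDR summit (26.8%), beside 52.5% of all genes. The Gr family, with 21 of 60, had the most, and the Or family, with 11 of 59, the fewest.

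Of the 171 receptor genes with no summit of their own, 131 had none within 10 kb. The other 40 (23.4%) had one that was nearer to another gene's TSS, beside 41.4% of all protein-coding genes with no summit of their own. Within 5 kb there were 20 such receptor genes (11.7%, beside 21.6%), and the closest summit was in the promoter class in 14 of them. For 18 of the 20 it was assigned to a gene that is no receptor. The promoter-class and non-receptor counts were not computed over all genes. Gr32a, a bitter co-receptor, was 0.642 kb from a summit at the promoter of Idua (signal 314), and Or88a was 0.799 kb from one at CG12402 (128). Ir25a, the broadly used Ir co-receptor, was 2.55 kb from a summit 147 bp from the TSS of tank with a signal of 1024, rank 117 of the list. Or85f was 3.12 kb from a summit at RpL34b, a ribosomal protein gene (371), and Ir76a 4.54 kb from one in an intron assigned to SREBP, a regulator of lipid synthesis (163). In these cases the summit was nearer to the neighbour than to the receptor gene, and those at CG12402 and SREBP were below the median IDR signal of 193.

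**Figure D4:**
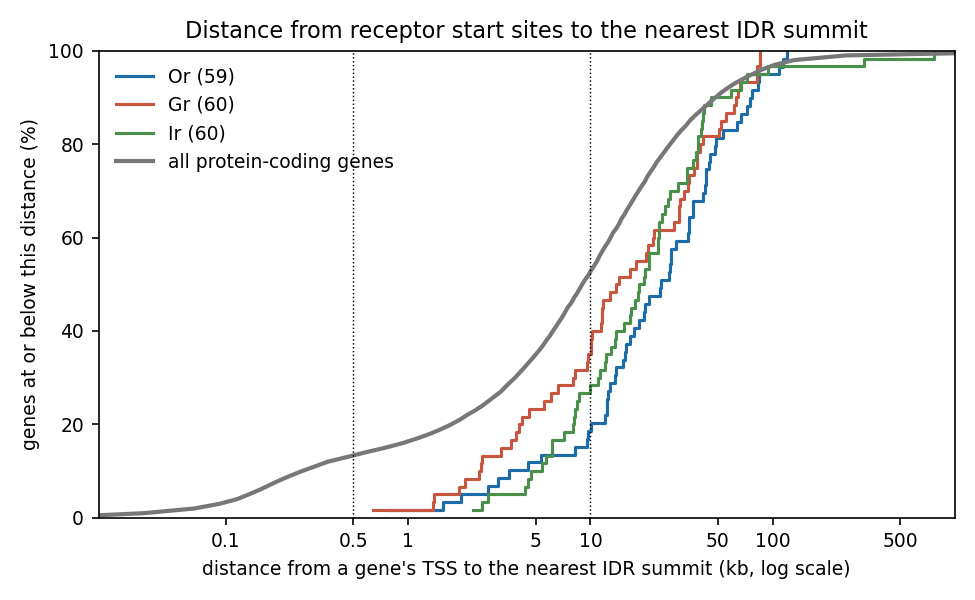
Cumulative percent of genes (y axis) by distance from the TSS to the nearest IDR summit in kb (x axis, log scale) for each receptor family and for all protein-coding genes, with dotted lines at 0.5 and 10 kb. No receptor gene lies left of 0.5 kb, against 13.4% of all genes, and the medians are 24.3 kb (Or), 14.1 kb (Gr), 19.2 kb (Ir) and 9.02 kb (all genes).

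In the list that also holds weak regions, the share of receptor genes with a summit was closer to that of all genes. It was lower for Gr than for Or and Ir. The list called on the pooled alignments held 29208 peaks and background regions, and the IDR peaks are its 5327 strongest. In that list 84 of 179 receptor genes had an assigned summit (46.9%, Wilson interval 39.8 to 54.2), beside 53.6% of all genes. Or (32 of 59, 54.2%) and Ir (32 of 60, 53.3%) were at the share of all genes, and Gr was lower (20 of 60, 33.3%, interval 22.7 to 45.9). Close to the start sites the observed shares of all 3 families were lower. With summits at most 1 kb away, 15 of 59 Or, 9 of 60 Gr and 18 of 60 Ir genes had one. Together this is 23.5% of the 179, beside 36.8% of all genes. For these family shares no interval was computed and no difference was tested. Whether Or and Ir differ from all genes there is therefore not resolved. In replicate 2 the count was 93 (52.0%; all genes 57.8%) and in replicate 3 it was 78 (43.6%; all genes 51.7%). By family, replicate 2 listed 33 Or, 20 Gr and 40 Ir genes and replicate 3 listed 32 Or, 22 Gr and 24 Ir genes, so the Ir count differed most between the libraries. Both replicates listed 59 of the genes, which is 63.4% of those in replicate 2 and 75.6% of those in replicate 3. The same shares over all protein-coding genes were 74.3% and 83.0%.

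Few of these regions reached the IDR list. Of the 209 pooled summits assigned to receptor genes, 13 did (6.22%), beside 19.4% for all genes. The share was 2.53% for Or (2 of 79), 2.56% for Ir (2 of 78) and 16.7% for Gr (9 of 54), which was near that of all genes. Without Gr93a to Gr93d, 1 of 31 Gr summits reached it. Low shares were not particular to the receptors: it was 11.6% for summits of odorant-binding protein genes (8 of 69), 9.38% for pickpocket channel genes (3 of 32) and 10.6% for transcription factor genes that specify sensory neurons (22 of 208). Or10a and Gr10a share a start site, and its summits are counted for both. The median pooled signal was 38.4 for Or, 48.9 for Gr and 36.1 for Ir summits, beside 45.5 for all genes, and 90% of receptor summits were below 75.9, beside 191 for all genes.

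**Figure D5:**
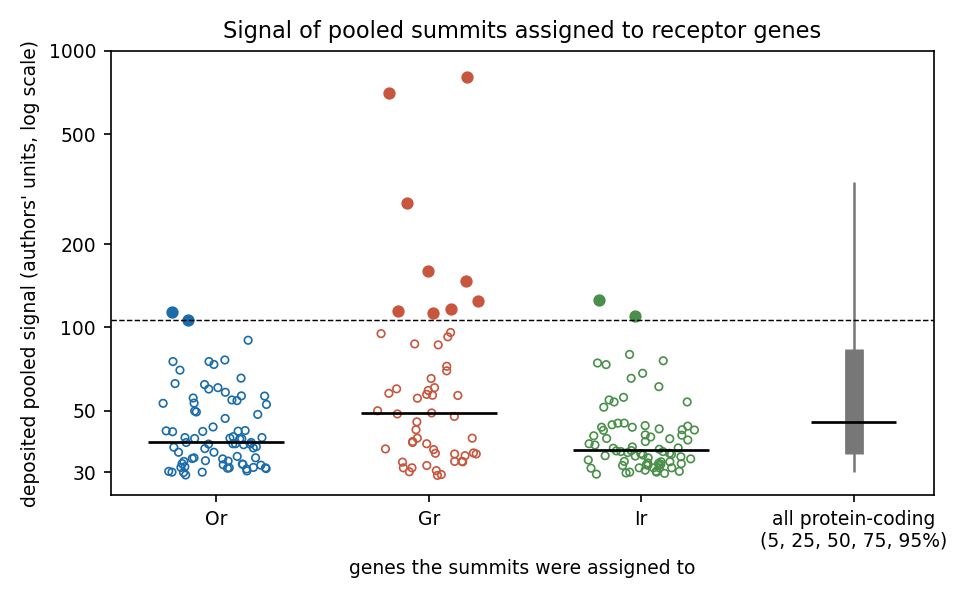
Deposited pooled signal (y axis, authors' units, log scale) of each summit assigned to an Or, Gr or Ir gene (x axis), filled where it is in the IDR list, with the median as a bar; the grey bar gives the 5th, 25th, 50th, 75th and 95th percentiles for all protein-coding genes (30.1, 35.0, 45.5, 83.3 and 335), and the dashed line the lowest IDR signal (106). Most receptor summits lie below the line, and those far above it are Gr93 summits.

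The length of genome in which a summit would go to a gene did not differ by much. This stretch, the territory nearest to the gene's TSSs within 10 kb, had a median of 4.30 kb for receptor genes and 4.34 kb for all genes. It was 5.11 kb for Or, 3.33 kb for Gr and 5.63 kb for Ir genes. Per Mb of territory, receptor genes had 10.9 IDR summits and all genes 46.7. The Or family had 4.57, the Ir family 4.41 and the Gr family 29.9, and the Gr value without Gr93a to Gr93d was 3.61. In the pooled list the values were 175 per Mb for receptor genes and 241 per Mb for all genes, so the families were closer to the rest there than in the IDR list. The pooled values of the families were alike, 181 (Or), 179 (Gr) and 172 (Ir), though Gr without Gr93a to Gr93d had 112.

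Among receptor genes with no IDR summit, those of highest pooled signal were Gr77a, Or67c, Or83c, Ir7a and Ir94e. Gr77a had a pooled signal of 95.9 (rank 5936), the closest below the IDR list. It reached 59.5 in replicate 2 (rank 4155), and 43.7 in replicate 3 at another position, -29 bp from the TSS. Or67c, with 11 pooled summits the most of any member, reached 89.9, and Or83c, a receptor for the odour farnesol, reached 76.3. Ir7a, implicated in the avoidance of acetic acid, reached 75.8 and Ir94e 74.4. Gr68a, a receptor linked to courtship taste, followed at 72.4 in the Gr family. Or67d, a receptor for the pheromone cis-vaccenyl acetate, had 6 pooled summits with a top signal of 62.2. The 10 kb limit left out 5 IDR summits nearest to a receptor TSS. The closest, of signal 136, lay 10033 bp from Ir67c, whose own strongest pooled summit was 65.5, and 4 lay 41959 to 58783 bp from Or67d.

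None of the co-receptors and best known taste receptors named here had an IDR summit. Apart from Orco, their pooled signals, where they had one, were at most 49.1. Ir25a had 2 pooled summits with a top signal of 30.2, Ir8a had 1 in replicate 2 only (19.9), and Ir76b had none in any list. Orco, which the symbol rule does not take in, had 1 pooled summit (80.8), with up to 31.6 in replicate 2 and 46.8 in replicate 3, and no IDR summit. The carbon dioxide receptor genes Gr21a and Gr63a had no assigned region in any list, nor had Gr66a, Gr28b and Gr61a. Of the sugar receptor genes, Gr5a (31.1), Gr64a (32.8), Gr64d (36.2) and Gr64f (49.1) had 1 pooled summit each, and Gr64b, Gr64c and Gr43a had none. The bitter co-receptor Gr33a had 1 (32.8). In all, 66 receptor genes had no region in the pooled or either single-library list (36.9%; all genes 32.0%). They were 31 of 60 Gr genes (51.7%), 18 of 59 Or genes (30.5%) and 17 of 60 Ir genes (28.3%).

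The 196 pooled summits of receptor genes outside the IDR list were more often intergenic than those of all genes: 97 were (49.5%, Wilson interval 42.6 to 56.4), beside 21.7%. The difference was not tested. Introns held 12.2%, beside 40.8%, promoters 21.4%, beside 24.6%, and coding exons 11.7%, beside 8.62%. Of the 196, 51 had a match within 100 bp in both replicates (26.0%, interval 20.4 to 32.6), beside 30.8% of those of all genes. Their GC content of 43.1% ± 9.69 (SD over summits) was close to the 43.4% ± 10.1 of all genes, and higher than at the receptor IDR summits.

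Some receptor genes had features of position that the symbol rule did not use, given here without the share over all genes. The start of 77 of the 179 (16 Or, 33 Gr, 28 Ir) was within 10 kb of an end of another gene of its family. Of the 179, 30 lay within the bounds of another protein-coding gene. Of the 8 with an IDR summit, 3 had such a family neighbour and 1 was nested. Gr93a was not counted among the 3, because its start was 10018 bp from the near end of Gr93b. Of those 8, 5 lay on 3R, 2 on 2R and 1 on 3L, arms that hold 42, 46 and 35 of the 179 receptor genes. Of the 5 on 3R, 3 were genes of the Gr93 cluster. Promoter GC content (250 bp before to 50 bp after the gene start) was 39.5% ± 5.82 (SD, 179 genes), beside 39.1% ± 7.77 for all genes. TAATTA was in 35 of 60 Gr promoters (58.3%, Wilson interval 45.7 to 69.9), 26 of 59 Or promoters (44.1%) and 19 of 60 Ir promoters (31.7%), beside 20.4% of all promoters. TAAACA was in 25.1% of receptor promoters, beside 32.5% of all, and GAGAG in 20.1%, beside 29.7%. A match to these letters is a description of the sequence and not a site of binding.

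Other chemosensory gene groups were set beside the receptors by the same assignment and the same background of 19.0%. Of 51 odorant-binding protein (Obp) genes, whose products carry odorants in the sensillum fluid, 7 had an IDR summit (13.7%, Wilson interval 6.81 to 25.7). The strongest were at Obp56h (585), Obp83g (373), Obp99b (273) and Obp83cd (219.7), and those of Obp83g and Obp99b were in the promoter class. Of 29 pickpocket genes, which encode sodium channels used in touch and taste, 3 had one (10.3%): ppk (838), ppk23 (234) and ppk8 (123). Of 30 transcription factor genes used in specifying sensory neurons, 11 had one (36.7%, interval 21.9 to 54.5), led by Eip93F (967), pdm3 (554), fru (504) and bab2 (282). These factor genes had a median territory of 19.5 kb and 34.8 IDR summits per Mb, so per length they were below all genes (46.7) and above the receptor genes (10.9). The Obp genes, with 29.6 per Mb, and the pickpocket genes, with 17.0, also lay between these values, and the Gr family had 29.9. The intervals of the Obp and pickpocket shares overlap that of the receptor genes, and no difference between the groups was tested.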

How the data were processed

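The authors deposited peak lists in dm6 and dm3, with an IDR list, a list from the pooled alignments and 1 list for each replicate. Per the file descriptions, each list derives from the replicates' alignments and 1 further alignment, and the labels name a possible control experiment. Which caller made the peaks, at which IDR threshold and with which signal scaling is not given in the sources used here. Sequencing depth is unknown. The deposited signal values of each dm6 list (29208 pooled, 28127 replicate 2 and 30000 replicate 3 regions) ranked the peaks. The dm3 lists were not used here. Chromatin was sheared by sonication, with sizes of 200 to 800 per the labels.

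Gene models were Ensembl release 115 (BDGP6) and sequence the RefSeq dm6 assembly. The coding sequence of 99.5% of genes began with ATG there. A summit (start plus offset) went to the nearest TSS of a protein-coding gene within 10 kb, with tied genes both counted. On 200 simulated summits the assignment matched an exhaustive search in 200. A summit within 500 bp of any transcript start was classed as promoter, and otherwise by the exon, intron or intergenic stretch it fell in. The members, lists and alternatives were chosen with earlier results of these data known. Named genes were every member with an IDR summit, the members of highest signal or most summits in the pooled list, and fixed co-receptors and taste receptors. No p-value was computed: with 1 group there is no contrast. Python 3.11.15, numpy 2.4.6, pandas 2.3.3, scipy 1.17.1 and matplotlib 3.10.9 were used.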

Additional observations from a re-analysis of the deposited data

How the results depend on the processing

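The count of receptor genes with an IDR summit (8; Or 2, Gr 4, Ir 2) stayed below the share of all genes under the 11 alternatives tried. With summits at most 1 kb from a TSS it was 0 in all 3 families (all genes 12.3%). At most 5 kb away it was 7 (3.91%; all genes 17.2%), and the Ir count was 1. By gene body extended by 1 kb it was 4 (Or 1, Gr 2, Ir 1; all genes 22.6%). With noncoding start sites it was 6 (3.35%; all genes 17.1%), and the Ir count was 0. Among the strongest 2663 IDR peaks it was 3 (Or 0, Ir 0; all genes 11.3%). Among the strongest 1000 it was 2 (Or 0, Gr 2, Ir 0; all genes 5.18%). With peaks matched in both replicates it was 7 (3.91%; all genes 18.0%), and the Or count was 1. Chosen after the data were seen: any IDR summit within 10 kb gave 48 (Or 11, Gr 21, Ir 16; all genes 52.5%), and without the Gr93 region the count was 5 (Gr 1; all genes 18.9%). From the 5327 strongest regions of 1 library alone, as many as the IDR list holds, it was 6 without replicate 2 (Or 1, Gr 4, Ir 1, all genes 19.4%). It was 7 without replicate 3 (Or 1, Gr 5, Ir 1; all genes 18.3%).

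At most 1 kb from a TSS, the pooled count fell from 84 to 42 (23.5%; all genes 36.8%; Or 15, Gr 9, Ir 18), the replicate 2 count from 93 to 44 (24.6%; all genes 37.7%) and the replicate 3 count from 78 to 39 (21.8%; all genes 36.7%). Or and Ir, at the pooled share of all genes within 10 kb, thus had lower observed shares than all genes within 1 kb. No interval was computed for these shares, so the Or and Ir differences within 1 kb are not resolved. Among the strongest 1000 peaks, summits per Mb were 1.68 (Or 0, Gr 6.64, Ir 0) and 9.26 for all genes. In windows of 100 bp on either side, TAAACA was in 30.8% of receptor summits (all IDR summits 23.6%), AGATAA in 23.1% (14.5%), TGATAA in 23.1% (16.9%), TAATTA in 23.1% (17.0%) and GAGAG in 7.69% (22.6%). These windows contain those of 50 bp on either side, so a share could only stay or rise. With 13 windows the Wilson interval of every motif again includes the share over all IDR summits. No paired analysis was possible because there is 1 group. With 13 summits, and an Or or Ir count that rests on 2 genes, differences between the families are not resolved, and the depth of the libraries is unknown.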
